A study of Homo sapiens with 2 samples.

Results

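Krüppel-like factors (KLFs) are DNA-binding transcription factors whose messenger RNAs were followed here in breast cancer cells given an siRNA against the long isoform of NSD3. The genes taken were 10 members of the family, KLF2, KLF3, KLF4, KLF5, KLF6, KLF7, KLF9, KLF10, KLF13 and KLF16, chosen by gene symbol in the probe annotation. They were represented by 15 of the 48701 probes of the array and by 10 of its 18774 named genes. Other sets served for comparison, the other KLF genes, with 7 on the array, and the related SP genes, with 8.

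The cells of both samples were MDA-MB-231, an invasive, hormone-receptor-negative line of breast carcinoma kept in culture. The first sample received 20 nM of the NSD3L-directed siRNA, and the second a non-specific targeted control siRNA whose concentration is not given in the sources used here. Both were transfected 2 times, 48 h apart, and total RNA was taken 48 h after the last transfection. There was 1 sample and 1 Illumina array per group, so no value has an error between cultures and no test was possible. For the same reason siRNA, culture, extraction and array cannot be told apart. NSD3 (older symbol WHSC1L1) encodes a histone H3 lysine methyltransferase, and its L isoform carries the catalytic domain.

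KLF proteins share a run of zinc fingers at their carboxyl end that binds GC-rich elements and CACCC boxes, the same kind of DNA that SP proteins bind. They differ in the rest of the protein. KLF2, KLF4, KLF5, KLF6 and KLF7 mostly activate transcription, KLF3, KLF8 and KLF12 recruit the co-repressor CtBP, and KLF9, KLF10, KLF11, KLF13, KLF14 and KLF16 recruit the co-repressor SIN3A. In epithelial and breast cells the family is known for opposing roles in proliferation and differentiation. KLF4 and KLF6 are described mostly as brakes on division and KLF5 mostly as a driver of it, and several members are transcribed within minutes of a growth or stress signal.

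The deposited intensities were linear, in arbitrary units, and kept a background. They ran from 23.8 to 17421, and a floor at the upper edge of the background was set at 40.9 on the NSD3L siRNA array and 41.0 on the control array. In all, 10545 genes read above it on both arrays. The 3 probes of the targeted gene were all close to the floor. They read 41.6, 37.6 and 40.8 on the NSD3L siRNA array, against 45.0, 41.9 and 55.3 on the control array. The last was at least 1.35-fold lower in NSD3L siRNA cells, taking the reading under the floor as the floor. It is annotated to another transcript than the first 2, which were 1.08-fold lower and at least 1.02-fold lower. The annotation does not say which transcript is the L isoform, so the larger difference cannot be assigned to that isoform. These readings were too near the background to establish depletion of NSD3L. All 11 markers of mesenchymal breast lines were above the floor on both arrays. Of 10 luminal markers 4 were, with KRT19 at 733 on the NSD3L siRNA array and 561 on the control array, EPCAM, ERBB3 and CDH1, but not ESR1, PGR, GATA3 or FOXA1. Of 7 fibroblast markers 1 was, and of 6 blood and macrophage markers 4 were. These were CD68, at 1195 on the NSD3L siRNA array and 1179 on the control array, and CD14, CSF1R and LYZ near the floor, while PTPRC and HBB were below it.

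KLF6 had the highest ratio of the members. It was the only one of the 10 members close to 2-fold higher in NSD3L siRNA cells, and it was so on both of its probes. KLF13 and KLF2 were higher by about 1.5-fold, KLF9 was lower by a similar factor, KLF5 was slightly lower, and KLF4 and KLF10 were slightly higher. KLF3, KLF7 and KLF16 read just above the background, where hardly any difference could show. By log2 ratio (NSD3L siRNA over control siRNA) 5 of the 10 members were higher and 5 lower, but 3 of the lower ones were these background readings. The median of all 10 was 0.04. Of the 6 members with more than 2 times the floor on at least 1 array, 5 were higher and only KLF9 was lower, and their median was 0.34. Over all 10545 genes, dim ones included, 49.3% were higher and the median was -0.0041. The share over all genes above 2 times the floor was not computed, and that cut was chosen after seeing the data. RNA came from whole cultures, so a difference in every cell and a difference in part of the cells cannot be told apart.

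**Figure D1:**
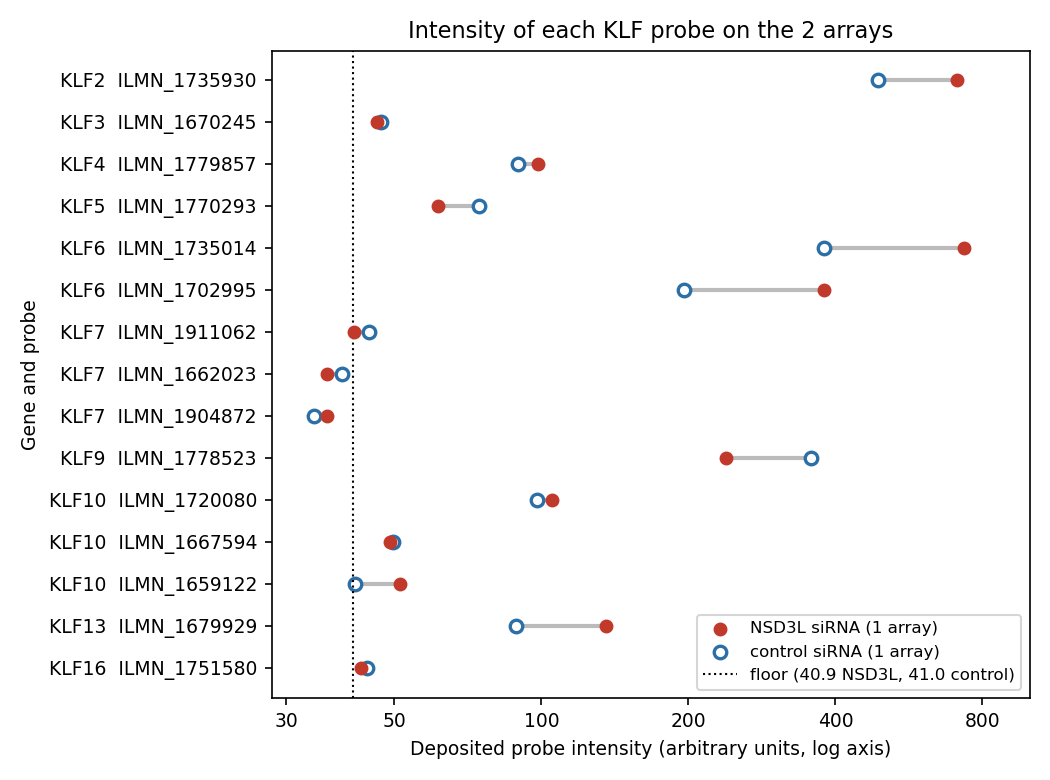
Deposited intensity (arbitrary units, log axis) of each of the 15 KLF probes on the NSD3L siRNA array (filled) and the control siRNA array (open), 1 array each, with no error between cultures. Both KLF6 probes, KLF2 and KLF13 lie further right on the NSD3L siRNA array and KLF9 further left, while the probes of KLF3, KLF7 and KLF16 sit at the dotted floor.

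KLF6, the ubiquitous zinc finger factor also known as a tumour suppressor of prostate and other epithelia, was read by 2 probes annotated to the same transcript. The brighter (ILMN_1735014) gave 734 on the NSD3L siRNA array, against 380 on the control array. The dimmer (ILMN_1702995) gave 378 in NSD3L siRNA cells, against 196 in control siRNA cells. The probes thus differed in brightness but gave log2 ratios of 0.95 each, or 1.93-fold higher, and differed from one another by 0.0012 on the log2 scale. Among probes of similar intensity the SD of the log2 ratio was 0.40 for either probe, so that the KLF6 probes lay 2.36 and 2.40 such SDs above 0. That SD describes the spread of different probes on these 2 arrays and not the spread between cultures.

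Of all 10545 genes, 52 (0.493%) had a higher ratio than KLF6, and among the 1437 genes in the same one of 10 equal intensity groups 15 (1.04%) did. The 3 genes of that group with the ratio nearest to that of KLF6 were LMNB2, encoding lamin B2, at 831 in NSD3L siRNA cells against 429 in control siRNA cells, AURKB, encoding the mitotic kinase Aurora B, at 575 in NSD3L siRNA cells against 296 in control siRNA cells, and EIF4G1, encoding a translation initiation scaffold, at 525 in NSD3L siRNA cells against 270 in control siRNA cells. Each had a log2 ratio of 0.96. With 2 arrays, likeness means only a similar ratio at a similar brightness.

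No member passed the 2-fold threshold named in the series description. Over all genes, 0.341% were more than 2-fold higher and 0.607% more than 2-fold lower. The count of members past 2-fold was thus near the background. At 1.5-fold, 2 of 10 members were higher, KLF6 and KLF13, and none was lower, where 3.63% of all genes were higher and 4.06% lower. Those shares include dim genes, whose log2 ratios spread less. KLF6 lay so near 2-fold that its side of the threshold turned on the background. With the most frequent intensity of each array (34.8 and 34.9) subtracted, the brighter probe gave 699 in NSD3L siRNA cells, against 345 in control siRNA cells, and was 2.03-fold higher. The dimmer gave 344 in NSD3L siRNA cells, against 161 in control siRNA cells, and was 2.13-fold higher. In that setting 2.41% of all genes were more than 2-fold higher, and 2.16% had a higher ratio than KLF6.

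**Figure D2:**
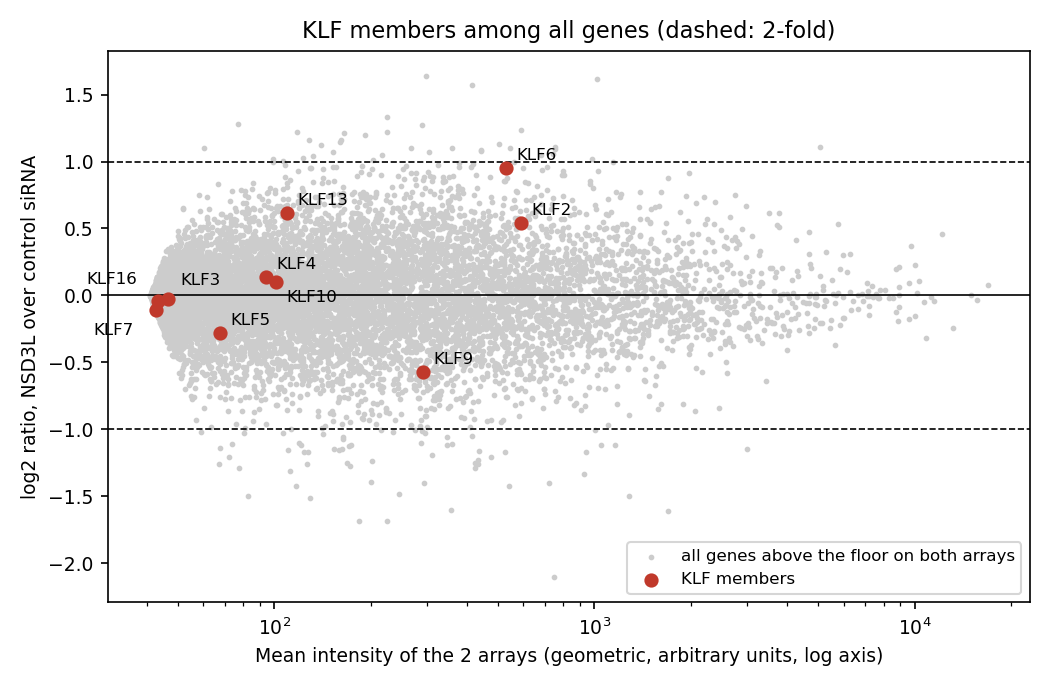
Log2 ratio (NSD3L siRNA over control siRNA) against the geometric mean intensity (arbitrary units, log axis) for the 10545 genes above the floor on both arrays (grey, brightest probe of each) with the 10 KLF members in red. KLF6 lies at 0.95, just under the dashed 2-fold line and at the upper edge of the cloud, KLF2 and KLF13 lie inside it, and KLF9 lies at -0.57.

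The promoters of the 4 members with the largest ratios in either direction are shown because KLF proteins act on GC and CACCC boxes. Each sequence is the 250 bases before the start of the RefSeq transcript (GRCh38.p14), 5′ to 3′ on the gene's strand. Capitals mark matches on either strand to 3 elements. The GC box was searched as GGGCGG. The CACCC box was searched by the letters of its name. The MEF2 site, which reads alike on both strands, was searched as CTA with any 4 bases before a closing TAG. KLF6 lies at chr10:3785210-3785459 on the minus strand, KLF2 at chr19:16324576-16324825 on the plus strand, KLF13 at chr15:31326585-31326834 on the plus strand and KLF9 at chr9:70414658-70414907 on the minus strand.
KLF6: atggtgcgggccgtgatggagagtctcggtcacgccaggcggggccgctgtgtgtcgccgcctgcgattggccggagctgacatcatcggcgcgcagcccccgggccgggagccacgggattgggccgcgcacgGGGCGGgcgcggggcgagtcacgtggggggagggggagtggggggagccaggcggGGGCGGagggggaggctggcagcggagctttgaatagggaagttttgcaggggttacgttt
KLF2: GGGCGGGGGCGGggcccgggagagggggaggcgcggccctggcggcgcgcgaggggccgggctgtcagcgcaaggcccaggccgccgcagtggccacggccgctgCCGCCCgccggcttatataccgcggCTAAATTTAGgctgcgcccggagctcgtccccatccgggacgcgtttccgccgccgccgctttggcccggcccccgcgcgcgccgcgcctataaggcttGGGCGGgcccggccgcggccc
KLF13: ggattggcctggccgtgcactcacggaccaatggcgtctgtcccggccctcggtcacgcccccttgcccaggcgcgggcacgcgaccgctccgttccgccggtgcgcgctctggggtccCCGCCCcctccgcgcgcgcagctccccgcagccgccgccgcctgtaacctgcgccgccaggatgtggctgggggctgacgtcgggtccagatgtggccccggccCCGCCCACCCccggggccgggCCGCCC
KLF9: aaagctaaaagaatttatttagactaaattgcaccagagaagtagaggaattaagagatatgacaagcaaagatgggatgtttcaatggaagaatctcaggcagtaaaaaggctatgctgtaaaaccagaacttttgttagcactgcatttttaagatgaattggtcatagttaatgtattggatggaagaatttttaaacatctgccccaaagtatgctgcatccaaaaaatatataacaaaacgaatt

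The 3 promoters of higher members were rich in G and C, with 72.4% for KLF6, 80% for KLF2 and 78.8% for KLF13, and that of KLF9 was poor in them, with 32.4%. The median over the 35116 start sites of the table was 58%, and 2.92% of them had less G and C than KLF9. Those sites include genes not measured above the floor. Genes above the floor had a higher median of 64%, taking for each gene the median over its starts. GC boxes numbered 2 in KLF6, 4 in KLF2 and 3 in KLF13, and there was none in the KLF9 window. Such a box was in 42.6% of all start sites. A CACCC box, found in 54.7% of all sites, was in the KLF13 window, where it overlapped a GC box. KLF2 held the string CTAAATTTAG, a match to the MEF2 site, which 2.36% of all sites had, and its first base lay 120 bases before the start. KLF6 also held an E-box (CACGTG) starting 97 bases before its start, a string present in 6.34% of sites, which the KLF4 window and a KLF7 start also had. A pair of CCAAT boxes (CCAAT) was in the KLF6, KLF13 and KLF9 windows and at a KLF5 start, and 32% of sites had at least 1. These are matches of letters in a window and say nothing of which factors were bound.

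The contrast in base composition was not confined to the higher members. KLF16 read near the background, yet its window had 86.4% G and C and 7 GC boxes, the most of the 12 member start sites used, which include none of KLF3 or KLF10. KLF4 had 69.2% and 4 GC boxes. KLF5 had one start at 40.8% and another at 70.8%, and the 4 starts of KLF7 ran from 41.6% to 72%. Across genes above the floor that had a promoter in the table, the ratio also shifted slightly with promoter composition. Composition was taken here as the median over the starts of a gene. Of 10 equal groups of genes, the one with the lowest G and C content (26.8% to 49.8%) had a median log2 ratio of -0.06, and the one with the highest (76.4% to 96.4%) had one of 0.08. The SD of the log2 ratio inside these groups was 0.31 and 0.34, so the shift was small beside the spread. The part of composition in the ratios of the members was not tested.

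Among the activating members, KLF2, known for keeping endothelial cells and T cells quiescent, was clearly above the floor. It read 711 in NSD3L siRNA cells, against 489 in control siRNA cells, which was 1.45-fold higher with a log2 ratio of 0.54. That was 1.34 SDs of similarly bright probes, and 4.56% of all genes had a higher ratio. KLF4, one of the reprogramming factors and a brake on division in epithelium, read 98.6 in NSD3L siRNA cells, against 89.5 in control siRNA cells, a log2 ratio of 0.14. KLF5, a factor of proliferating basal epithelium, read 61.4 in NSD3L siRNA cells, against 74.6 in control siRNA cells, a log2 ratio of -0.28. KLF4 lay within 1 SD of similarly bright probes, and KLF5 lay 1.01 SDs below 0.

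KLF7, the closest relative of KLF6 by protein sequence, was hardly detected. Its brightest probe (ILMN_1911062) read 41.3 in NSD3L siRNA cells, against 44.4 in control siRNA cells, a log2 ratio of -0.11. The others read 36.4 each in NSD3L siRNA cells, against 39.0 and 34.2 in control siRNA cells, below the floor on both arrays. The 3 probes together placed KLF7 at the background, so these arrays hold no usable comparison of KLF6 with it. KLF3, the CtBP-binding member, also read near the background, at 46.1 in NSD3L siRNA cells and 47.0 in control siRNA cells, a log2 ratio of -0.03.

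The SIN3A-binding members were split. KLF13, known as an activator of the chemokine gene CCL5 in T cells, read 135 in NSD3L siRNA cells, against 88.5 in control siRNA cells. It was 1.53-fold higher, with a log2 ratio of 0.61 that lay 1.90 SDs above 0. Of all genes, dim ones included, 3.11% had a higher ratio. KLF9, a factor induced by glucocorticoids and thyroid hormone, went the other way. It read 239 in NSD3L siRNA cells, against 356 in control siRNA cells, and was 1.49-fold lower with a log2 ratio of -0.57, 1.45 SDs below 0. Of all genes, dim ones included, 4.31% had a lower ratio than KLF9. The ratio of KLF6 exceeded that of KLF9 by 1.53 on the log2 scale, the whole span of the 10 members.

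KLF10, an early gene of the TGF-beta response that is also called TIEG, had 3 probes that did not give 1 answer. Its brightest probe read 105 in NSD3L siRNA cells and 97.9 in control siRNA cells, a log2 ratio of 0.10. Another, annotated to a different transcript than the others, read 48.9 in NSD3L siRNA cells and 49.7 in control siRNA cells, a ratio of -0.03. The third read 51.3 in NSD3L siRNA cells, against 41.6 in control siRNA cells, a ratio of 0.30, where the control array read just above its floor. That ratio was 2.61 SDs of similarly bright probes, more than the 2.36 and 2.40 of KLF6, but the SD at that brightness was only 0.12. KLF16 read 42.6 in NSD3L siRNA cells and 43.9 in control siRNA cells, a log2 ratio of -0.04 at the background.

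The ratio of KLF6 was set against its relatives as a difference. The other 9 members had a median log2 ratio of -0.03 and ran from -0.57 to 0.61, so that KLF6 lay 0.98 above their median and 0.34 above the next member, KLF13. Among the 6 members above 2 times the floor, KLF6 lay 0.81 above the median of the rest.

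**Figure D3:**
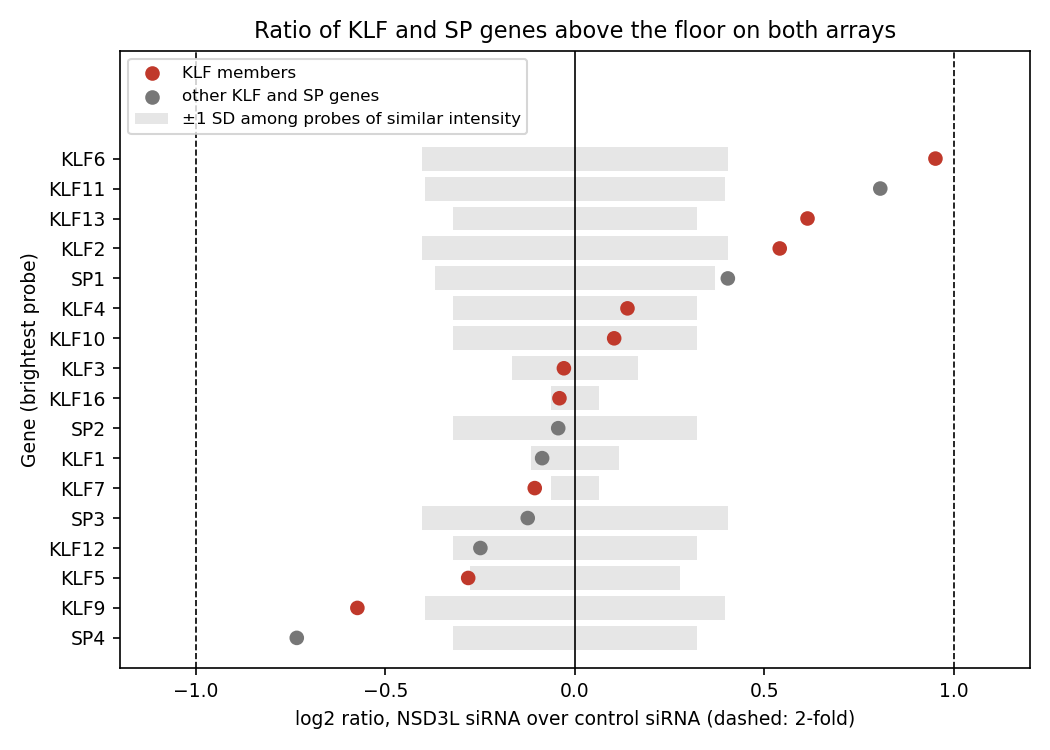
Log2 ratio (NSD3L siRNA over control siRNA) of the KLF members (red) and of other KLF and SP genes (grey) by their brightest probe, with grey bars for 1 SD on either side of 0 among probes of similar intensity. KLF6, KLF11, KLF13, KLF2 and SP1 lie above their bar, and KLF7, KLF5, KLF9 and SP4 below it. KLF7 reads at the background, where its bar spans only 0.06 on either side of 0.

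Outside the 10 members, the KLF gene nearest to KLF6 was KLF11, a TGF-beta-induced repressor also called TIEG2. Its brighter probe read 390 in NSD3L siRNA cells, against 223 in control siRNA cells, and was 1.75-fold higher with a log2 ratio of 0.81. Its dimmer probe read 69.5 in NSD3L siRNA cells, against 54.3 in control siRNA cells, a log2 ratio of 0.35. Both probes were higher, but by unequal amounts. KLF12, a CtBP-binding repressor, read 95.5 in NSD3L siRNA cells, against 114 in control siRNA cells, a log2 ratio of -0.25, or -0.03 by a probe near the floor. KLF1, the erythroid member, read 43.1 in NSD3L siRNA cells and 45.8 in control siRNA cells, at the background.

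KLF15, a glucocorticoid-induced regulator of amino acid and glucose metabolism, read 40.4 in NSD3L siRNA cells, under the floor, against 59.1 in control siRNA cells, and was at least 1.44-fold lower. KLF17 read 41.2 in NSD3L siRNA cells and 39.1 in control siRNA cells, which gave a bound of 1.01-fold higher. KLF8 and KLF14 were below the floor on both arrays. Of all 17 KLF genes on the array, 13 were above the floor on both, 6 of these were higher and 7 lower, and their median was -0.03.

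The SP genes were lower or close to no difference, with 1 exception. SP1, the widely expressed activator of GC-box promoters, read 129 in NSD3L siRNA cells, against 97.4 in control siRNA cells, a log2 ratio of 0.40. SP4, a neuronal relative, read 79.7 in NSD3L siRNA cells, against 133 in control siRNA cells, and was 1.66-fold lower with a log2 ratio of -0.73. SP3 read 302 in NSD3L siRNA cells and 330 in control siRNA cells, a ratio of -0.12, and SP2 104 in NSD3L siRNA cells and 107 in control siRNA cells, a ratio of -0.04. SP5 gave a bound of 1.01-fold higher, and SP6, SP7 and SP8 were under the floor on both arrays.

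Genes that act on or with KLF proteins were taken as lists. Of 15 measured co-repressors and co-activators, 11 were higher and 4 lower, with a median log2 ratio of 0.13 and none past 1.5-fold. Of all genes 49.3% were higher. PARP1, encoding a poly(ADP-ribose) polymerase, had a log2 ratio of 0.45, the SIN3 complex subunits SAP30 and SAP18 had 0.43 and -0.42, CTBP1, the co-repressor of KLF3, 0.30 and the histone deacetylase gene HDAC3 0.25. SIN3A itself had 0.13. CTBP2 was below the floor.

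Of 11 ubiquitin ligases and stabilisers of KLF proteins, 4 were higher and 7 lower, around a median of -0.09. Over all genes, 0.341% were more than 2-fold higher and 0.607% more than 2-fold lower. The single gene past 2-fold in any of these lists was FBXO32, encoding the F-box protein atrogin-1. FBXO32 read 244 in NSD3L siRNA cells, against 526 in control siRNA cells. It was 2.16-fold lower by that probe, with a log2 ratio of -1.11, and had -0.57 by a dimmer one. YAP1, the Hippo effector that stabilises KLF5, read 1053 in NSD3L siRNA cells, against 1539 in control siRNA cells, a log2 ratio of -0.55. SMURF1 had 0.49, ITCH, the ligase for KLF10, -0.48 and WWP1, the ligase for KLF5, -0.15.

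Of 18 upstream kinases and factors, 10 were higher and 8 lower, around a median of 0.06. TGFBR2, the type II TGF-beta receptor and a gene that KLF6 is also reported to regulate, read 1579 in NSD3L siRNA cells, against 932 in control siRNA cells, a log2 ratio of 0.76, or 0.19 by its dimmer probe. SRF, the serum response factor, read 692 in NSD3L siRNA cells, against 441 in control siRNA cells, a ratio of 0.65. Its partner gene ELK1 had 0.55, and MEF2D, of the family that drives KLF2 and KLF4, had 0.54. The other MEF2 genes measured went the other way, MEF2A with -0.26 and MEF2C with -0.14, both near the background. NR3C1, the glucocorticoid receptor gene, had -0.45, or -0.12 by its dimmer probe. The kinase genes MAP2K5 and MAPK7 had 0.14 and -0.16.

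Immediate early genes, the class to which KLF6, KLF10, KLF4 and KLF2 are often assigned, did not go one way. Of 12 measured, 6 were higher and 6 lower, around a median of -0.04. FOSL1, an AP-1 subunit gene, read 435 in NSD3L siRNA cells, against 254 in control siRNA cells, a log2 ratio of 0.78. It was the only one past 1.5-fold. FOSB had -0.39, IER5 0.31, JUN 0.23 and EGR1 0.22.

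Of 37 genes reported as KLF targets, 23 were measured, of which 15 were higher and 8 lower, around a median of 0.03. Beside TGFBR2, TXNIP, an inhibitor of thioredoxin, read 1876 in NSD3L siRNA cells, against 1201 in control siRNA cells, a log2 ratio of 0.64. CCND1, encoding cyclin D1, read 4466 in NSD3L siRNA cells, against 3105 in control siRNA cells, a ratio of 0.52. PLAU, encoding urokinase, had -0.51 and TGFBR3 had -0.46. CDKN1A, the p21 gene through which KLF4 and KLF6 are known to slow division, had 0.24, and CCL5, the T-cell target of KLF13, had -0.10. Of the 23, 2 were past 1.5-fold higher and 0 lower, beside 3.63% and 4.06% of all genes.

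**Figure D4:**
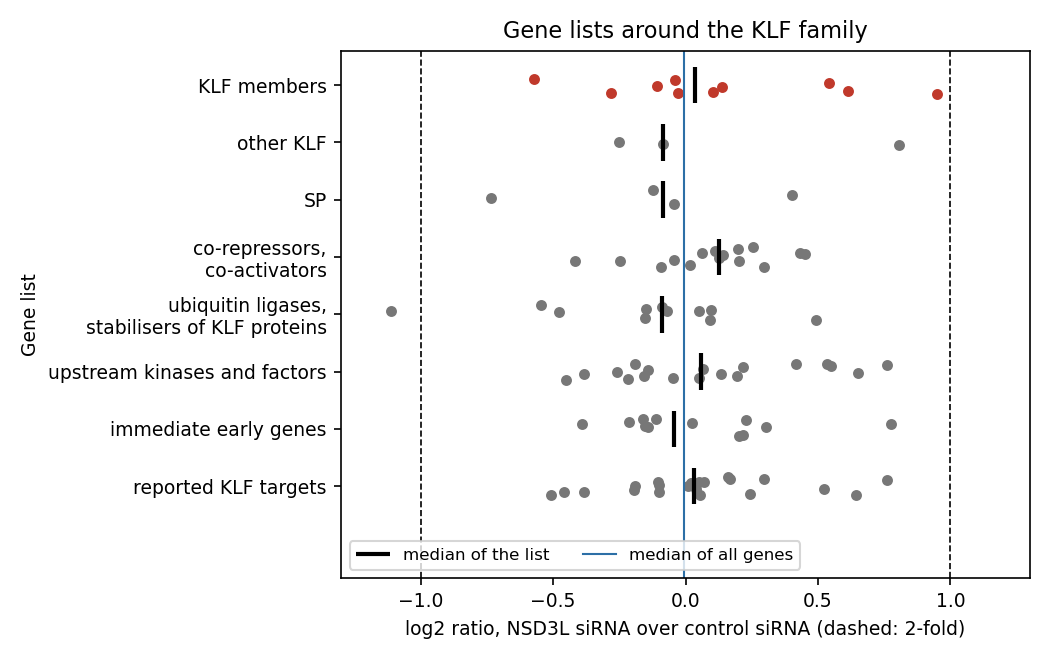
Log2 ratio (NSD3L siRNA over control siRNA) of each gene above the floor on both arrays in the KLF family and in 7 related gene lists, with black bars for list medians and a blue line for the median of all genes. The medians lie between -0.09 and 0.13, and FBXO32 is the only gene beyond a dashed 2-fold line. Of all genes, 0.341% were more than 2-fold higher and 0.607% more than 2-fold lower.

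The order of the members by ratio was KLF6, KLF13, KLF2, KLF4, KLF10, KLF3, KLF16, KLF7, KLF5 and KLF9. The widest steps between neighbours were 0.40 from KLF2 to KLF4 and 0.34 from KLF6 to KLF13, both under the SD of 0.40 among probes as bright as KLF2 and KLF6. KLF3, KLF16 and KLF7 read at the background and have no order among themselves. Subtracting the mode raised KLF13 to 0.91 and lowered KLF7 and KLF5 to -0.57 and -0.58, beside KLF9 at -0.65, so the lower end of the order was not settled. KLF6 stayed first in every setting shown in the plot of ratios by processing.

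**Figure D5:**
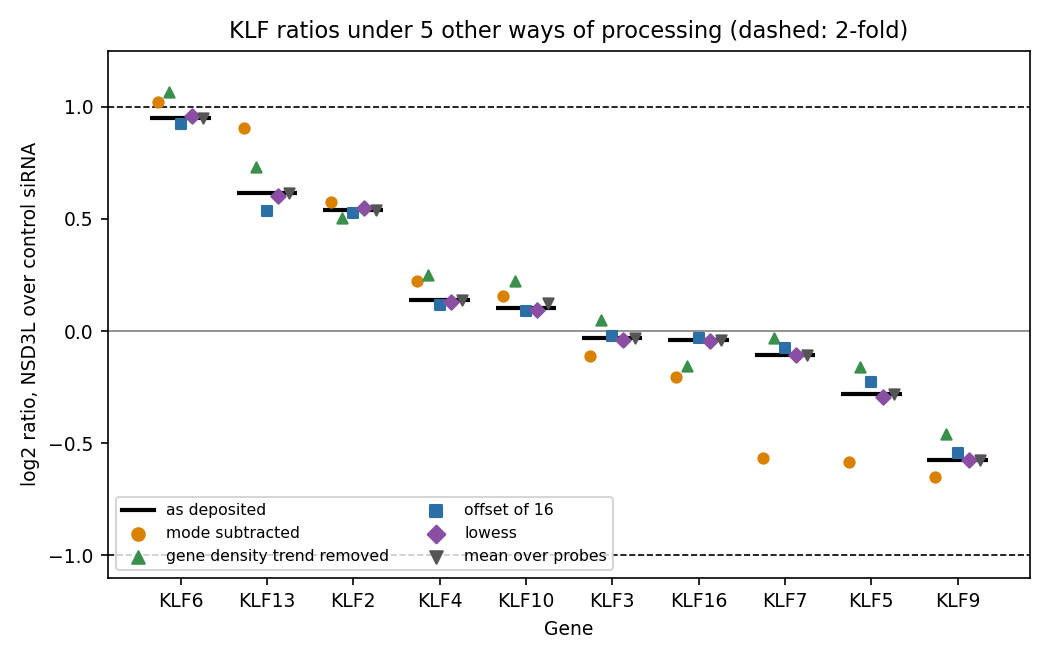
Log2 ratio (NSD3L siRNA over control siRNA) of the 10 KLF members as deposited (black bars) and under 5 other settings (symbols). KLF6 lies between 0.92 and 1.06 and is the only member that crosses the dashed 2-fold line, while the dim members KLF7 and KLF5 move to -0.57 and -0.58 when the mode is subtracted.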

How the data were processed

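RNA of 2 MDA-MB-231 samples was read on Illumina arrays, 1 array each. The authors deposited linear intensities, 1 value for each probe on each array, made with BeadStudio per the submitters' processing notes. The software version, the background correction and the normalization were not stated in the sources, and detection p-values were not used. Sorted intensities of the deposited arrays differed by at most 0.025 on the log2 scale, the pattern left by quantile normalization between arrays. This makes the deposited intensities comparable between arrays and hides any difference in total signal.

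Probes were named from a 2016 platform annotation whose array version was not matched to the version 3.0 in the series description. Of 48701 probes 23687 had 1 gene symbol, 35 several and 24979 none. Of those with 1 symbol 23651 were updated through the gene number. Log2 ratios (NSD3L siRNA over control siRNA) were taken with no offset. The floor of each array was 2 times its mode less its 1st percentile, and the brightest probe stood for its gene. Spread was described by the SD of the log2 ratio in 10 equal groups of intensity (Python 3.11.15, pandas 2.3.3, scipy 1.17.1). No p-value was computed, and the number of arrays limits the precision. Ratios were tested on simulated data with known folds.

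The named genes were all probes of the members, the other KLF and SP genes above the floor, up to 5 genes per list with the largest ratios and the 3 nearest to KLF6. SIN3A, CTBP2, MEF2A, MEF2C, MAP2K5, MAPK7, CDKN1A, CCL5 and the luminal and blood genes were named after their values were seen. The members and lists were chosen with earlier results of these data known. Promoters are from RefSeq, with 12 start sites of 8 members used. KLF3 had no entry in the promoter table, member start sites on chromosome 8 were left out, and KLF10 is not among the 8 members. The alternatives were quantile normalization, median centring, lowess (span 0.3), mode subtraction, an offset of 16, other floors, the mean over probes, removal of the trend with gene density (protein-coding genes within 500 kb) and other fold thresholds.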

Additional observations from a re-analysis of the deposited data

How the results depend on the processing

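Floors and probe means that cannot change a value were left out of the counts. KLF6 had a log2 ratio between 0.92 and 1.06 under 7 alternatives. Its distance from the median of its relatives lay between 0.81 and 1.13 under 10, and the median of the members between 0.02 and 0.34 under 9. Median centring is among the 10, though it subtracts a constant and cannot change that distance. Quantile normalization is in every count, though the sorted intensities already nearly matched, and it left KLF6 at 0.95. The number of members more than 2-fold higher was 0 as deposited, where 0.341% of all genes were. It was 1, KLF6, with the mode subtracted (1.02), where 2.41% of all genes were. It was also 1, KLF6, with the gene density trend removed (1.06), where 0.403% of all genes were. A 1.5-fold threshold gave 2 members, beside 3.63% of all genes. No member was past the threshold on the lower side under any of the 12 settings run, where 0.607% of all genes were past 2-fold as deposited. Of the 12, 3 were other floors, which cannot change a ratio. The 3-fold threshold could not give a member either, since none was past 2-fold. Of 62 ratios of single members that an alternative could change, 5 moved by more than the SD of similarly bright probes. These were KLF5, KLF7 and KLF16 with the mode subtracted, at -0.58, -0.57 and -0.20, and KLF7 and KLF16 with the density trend removed, at -0.03 and -0.16. KLF3, at -0.03, turned to 0.05 with the density trend removed, the only change of sign among these ratios. KLF3, KLF7 and KLF16 had no value with the 75th percentile as floor. Leaving out dim members and taking all other KLF genes as relatives were chosen after seeing the data. No paired analysis was possible because each group had 1 array. Signal over background limits what can be seen of KLF3, KLF7 and KLF16.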
